A study of Mus musculus with 6 samples.

Results

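The periodontal ligament and dental follicle genes examined here are Postn, Tnc, Tnn, Scx, Tnmd, Mkx, Sparc and Thbs2. They were taken by symbol from the deposited expression table, which lists 25899 symbols, and all 8 were found. RNA came from the apical mesenchyme of lower first molars at postnatal day 7.5, in 3 control libraries (Bmpr1afl/fl) and 3 mutant libraries (Gli1-CreER;Bmpr1afl/fl). Both genotypes carry the floxed allele of Bmpr1a, which encodes a bone morphogenetic protein (BMP) receptor, and the mutants add a tamoxifen-dependent recombinase made in Gli1-expressing cells. The labels name a mixed C57Bl6/129S6/SvEvTac background and 2 litters. Control 3 and mutant 3 came from litter 2 and the other 4 libraries from litter 1. The tamoxifen schedule, whether controls received it, and whether a library held tissue of 1 mouse or of several are not given in the sources used here, so p-values measure the spread between these libraries.

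The dental follicle is the sheath of mesenchyme around a developing tooth, and it gives rise to the periodontal ligament, cementum and part of the alveolar bone. The ligament is a tendon-like tissue, and tendon and ligament cells share transcription factors and matrix proteins. Scx (scleraxis) and Mkx (mohawk) are transcription factors of tendon and ligament cells, and Tnmd (tenomodulin) is a membrane glycoprotein that scleraxis is known to induce in tendon. Postn (periostin), the tenascins Tnc and Tnn, Thbs2 (thrombospondin 2) and Sparc are secreted matricellular proteins, which bind collagen, fibronectin or cell surface receptors and tune how matrix is assembled. Sparc and Tnc are also made in other mesenchyme, so none of these genes marks the ligament alone.

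The libraries held 15916045 to 20609420 reads on genes, and levels are given as reads per 1000000 (RPM). No pair of libraries matched within counting error, as repeated copies of 1 library would (chi-square per degree of freedom at least 20.1). Counting error does not cover amplification, since reads are not independent molecules. Bmpr1a was at 121, 139 and 149.5 RPM in controls 1 to 3 and at 108, 120.2 and 111 RPM in mutants 1 to 3. The mutants therefore lay below the controls without overlap, against 2.64% of all genes tested without overlap between genotypes. The log2 change of Bmpr1a was -0.27 (SE 0.14, unadjusted p 0.091 and adjusted p 1.00 by limma with Benjamini-Hochberg). Of the marker genes, all 10 listed for dental mesenchyme reached a mean of 1 RPM, and the odontoblast gene Dspp was at 113 to 6872 RPM. All 9 osteoblast and all 7 enamel epithelium genes reached that mean too, so it does not single out mesenchyme. The summed level of 7 enamel epithelium genes ranged 22.1-fold between libraries, from 2143 to 36754 RPM in controls and from 4454 to 47440 RPM in mutants. None of 8 skeletal muscle genes reached 1 RPM in any library, and their sum was at most 1.42 RPM. In bulk tissue, fewer cells of a type and less RNA per cell cannot be told apart.

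In the GRCm38 annotation, the build also called mm10, Postn lies at chr3:54361109-54391037, Tnc at chr4:63959785-64047015, Tnn at chr1:160085029-160153580, Scx at chr15:76457452-76459458, Tnmd at chrX:133850980-133865577, Sparc at chr11:55394500-55423183 and Thbs2 at chr17:14665500-14694235. The table gives 1 row per symbol, so exons and isoforms are not resolved. Levels of different genes were set side by side only after division by exon length, from the GENCODE annotation of GRCm38. Per kilobase of exon, the order of the means over 6 libraries was Sparc (1272 RPM per kb), Tnc (148), Postn (51.3), Thbs2 (16.3), Tnmd (16.1), Mkx (4.47), Tnn (3.52) and Scx (0.806). Sparc ranked between 2 and 18 among 12965 tested genes with a length, and it stood above the other members in every library. Tnc ranked between 85 and 403, and its lowest library (69.6 RPM per kb) lay below the highest of Postn (90.9). Postn (25.6 to 90.9) stayed above Thbs2, but its lowest library, control 3, lay below Tnmd in the same library (30.1). The ranges of Thbs2 (9.58 to 23.8 RPM per kb) and Tnmd (8.02 to 30.1) overlapped, as did those of Mkx (3.20 to 5.99) and Tnn (1.42 to 5.96). Scx was lowest, at 0.227 to 2.50 RPM per kb, and overlapped only with Tnn among its neighbours.

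The question the genotypes address is how gene expression in tooth mesenchyme changes once the Gli1 lineage loses Bmpr1a. None of the 8 genes passed the test between genotypes, and for none of them did the mutant libraries separate from the controls. The members were read against 14444 genes whose mean over the libraries reached 1 RPM, tested with limma on log2(RPM + 1), a scale that understates the change of low genes. At an adjusted p under 0.05, 0% of the genes tested were called (0 genes; limma, Benjamini-Hochberg; also 0 with limma voom). At an unadjusted p under 0.05, 1.05% were called (152 genes; 148 with limma voom), and 0 of the 8 members were among them. The groups did not overlap for 2.64% of all genes tested and for 0 of 8 members. Of the 8, 3 had a higher and 5 a lower fitted level in mutants, with a median log2 change of -0.10 against -0.01 over all genes tested.

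**Figure D1:**
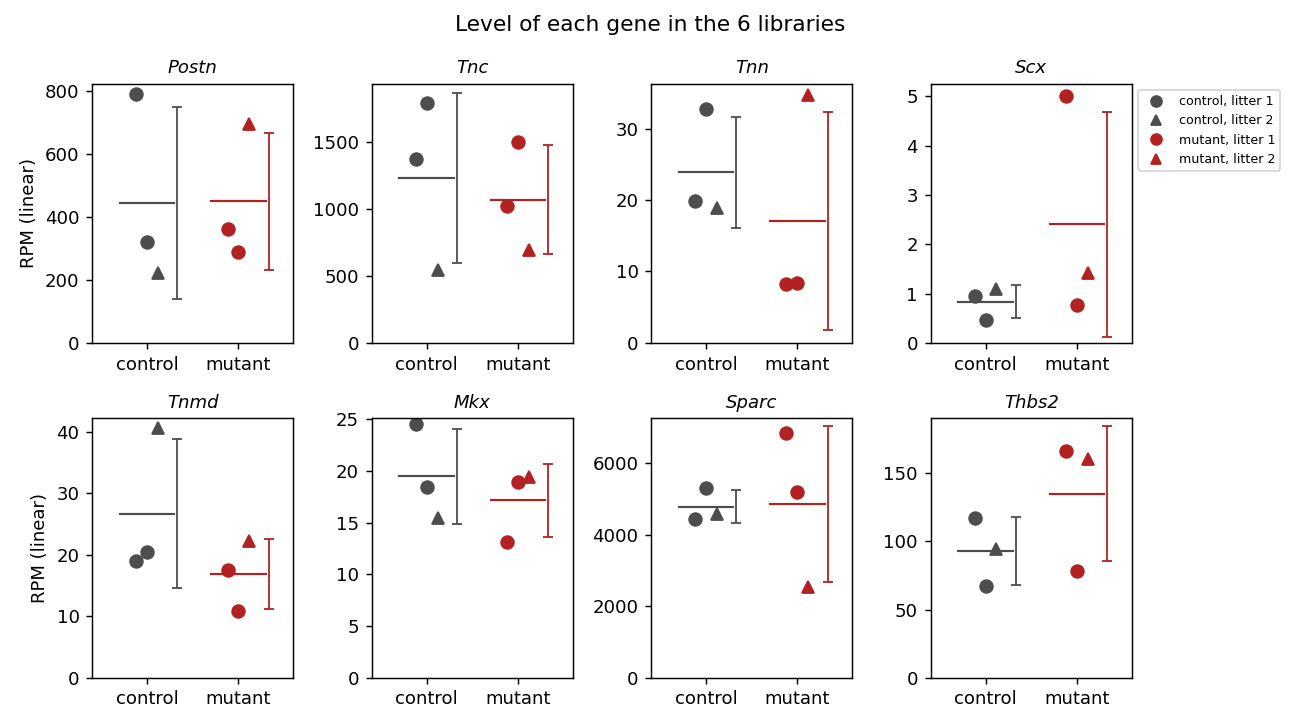
Linear RPM of the 8 genes in 3 control and 3 mutant libraries; circles are litter 1, triangles litter 2, horizontal lines are group means and bars are 1 SD. Control and mutant points overlap in all 8 panels, and the highest Scx point is mutant 1 at 5.01 RPM.

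Among the transcription factors, Scx was measured at 0.954, 0.455 and 1.09 RPM in controls 1 to 3 and at 5.01, 0.765 and 1.42 RPM in mutants 1 to 3. Mutant 1 stood alone, while mutant 2 lay within the control range. Its fitted change on the log2 scale was 0.70 (SE 0.45; unadjusted p 0.16, adjusted p 1.00, limma with Benjamini-Hochberg). It was 1.09 with a pseudocount of 0.1 and 1.15 with limma voom. Scx passed the minimum mean of 1 RPM only through mutant 1, since the other 5 libraries averaged under 1 RPM, so its tests lend no support to a difference. These values rest on 13 to 34 reads in the other 5 libraries and 141 reads in mutant 1. The mean of the mutants, 2.40 ± 2.28 RPM (SD, n = 3), is set by that library, and without mutant 1 the change was 0.19. Without mutant 2 it was 1.07 (unadjusted p 0.042, adjusted p 1.00 by limma with Benjamini-Hochberg). Scx lies within Bop1, a ribosome biogenesis gene on the opposite strand, with 0 shared exon bases in the annotation. Bop1 was at 25.1, 19.4 and 28.2 RPM in controls and at 21.1, 21.3 and 30.5 RPM in mutants. Its part in the Scx value of mutant 1 was not tested. Whether counting used strand is not given in the sources used here.

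Mkx was at 24.5, 18.4 and 15.5 RPM in controls and at 13.1, 18.9 and 19.4 RPM in mutants. It varied least of the 8, by 1.87-fold between its lowest and highest library, and the groups overlapped. Its log2 change was -0.17, with a 95% interval from -0.71 to 0.37 (limma; unadjusted p 0.48). A noncoding gene on the same strand shares 4.91% of the Mkx exon bases, and reads there cannot be assigned to either gene.

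Tnmd, the membrane glycoprotein downstream of scleraxis, was at 19.1, 20.4 and 40.7 RPM in controls and at 17.4, 10.8 and 22.3 RPM in mutants. The mutant was lower than the control or controls of its own litter in both litters, but mutant 3 lay above controls 1 and 2. The log2 change was -0.61 (SE 0.35; limma, unadjusted p 0.129, adjusted p 1.00 with Benjamini-Hochberg), and it was -0.49 within litter 1 and -0.84 within litter 2. It shrank to -0.27 without control 3 and -0.34 without mutant 2. With litter as a block the unadjusted p was 0.0202 and the adjusted p stayed at 1.00 (limma, Benjamini-Hochberg). Mutant 1, highest for Scx, was the second lowest for Tnmd, but Scx rested on 13 to 34 reads in the other libraries. Whether Tnmd follows Scx was not tested.

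Among the matricellular genes, Tnn (tenascin N, also called tenascin W) was at 19.9, 32.8 and 18.9 RPM in controls and at 8.24, 8.35 and 34.7 RPM in mutants. Mutants 1 and 2 were the lowest of the 6 libraries and mutant 3 was the highest. The log2 change over all libraries was -0.73, with a 95% interval from -1.98 to 0.52 (limma; unadjusted p 0.211). Within litter 1 alone it was -1.51 (unadjusted p 0.00119, adjusted p 1.00 by limma with Benjamini-Hochberg), and without mutant 3 it was -1.38 (unadjusted p 0.00194, adjusted p 1.00 by the same test). It shrank to -0.40 without mutant 1, -0.41 without mutant 2 and -0.49 without control 2.

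Tnc (tenascin C), a large glycoprotein of connective tissue under strain, was at 1368, 1786 and 541 RPM in controls and at 1019, 1494 and 691 RPM in mutants. Both litter 2 libraries were the lowest. The genotype change was -0.11 (95% interval -1.31 to 1.09; limma, unadjusted p 0.836). It changed sign without control 1 (0.05), control 2 (0.24) or mutant 3 (0.17). The annotation places a noncoding gene, 8030451A03Rik, on the opposite strand of Tnc with 176 shared exon bases, 2.26% of the Tnc exons. That gene was at 34.2, 49.4 and 14.6 RPM in controls and at 28.5, 39.1 and 15.0 RPM in mutants, the same order as Tnc within each genotype. Without known strand, reads in the shared bases cannot be assigned to either gene.

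Postn, which binds collagen I and promotes its crosslinking through Bmp1 and lysyl oxidase, was at 791, 320.2 and 222 RPM in controls and at 362, 289.8 and 695 RPM in mutants. Control 1 and mutant 3 were high, and the other 4 libraries lay between 222 and 362 RPM. The group means, 444 ± 304 RPM and 449 ± 216 RPM (SD, n = 3 each), differed by less than the spread, with a log2 change of 0.12 (95% interval -1.09 to 1.34; limma, unadjusted p 0.816). The change was -0.63 in litter 1 alone, -0.005 without control 2, -0.27 without control 3 and -0.24 without mutant 3.

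Thbs2, a secreted inhibitor of angiogenesis that also affects collagen fibril form, was at 117, 67.1 and 94.5 RPM in controls and at 167, 78.1 and 160.5 RPM in mutants. Mutants 1 and 3 were above all controls and mutant 2 was not. Its log2 change was 0.49 (SE 0.33; limma, unadjusted p 0.182, adjusted p 1.00 with Benjamini-Hochberg). The change was 0.28 without control 2 and 0.30 without mutant 1. Without mutant 2 it was 0.85 (unadjusted p 0.0145, adjusted p 1.00 by limma with Benjamini-Hochberg).

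Sparc (osteonectin), a collagen-binding glycoprotein abundant in dentin and bone, was at 4449, 5316 and 4589 RPM in controls and at 6838, 5189 and 2531 RPM in mutants. The controls stayed within 1.19-fold of each other, while mutants 1 and 3 were the highest and the lowest of all. The log2 change was -0.09 (95% interval -1.48 to 1.30; limma, unadjusted p 0.882). It was 0.29 in litter 1 alone, 0.32 without mutant 3, -0.40 without mutant 1 and -0.42 under quantile normalization.

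**Figure D2:**
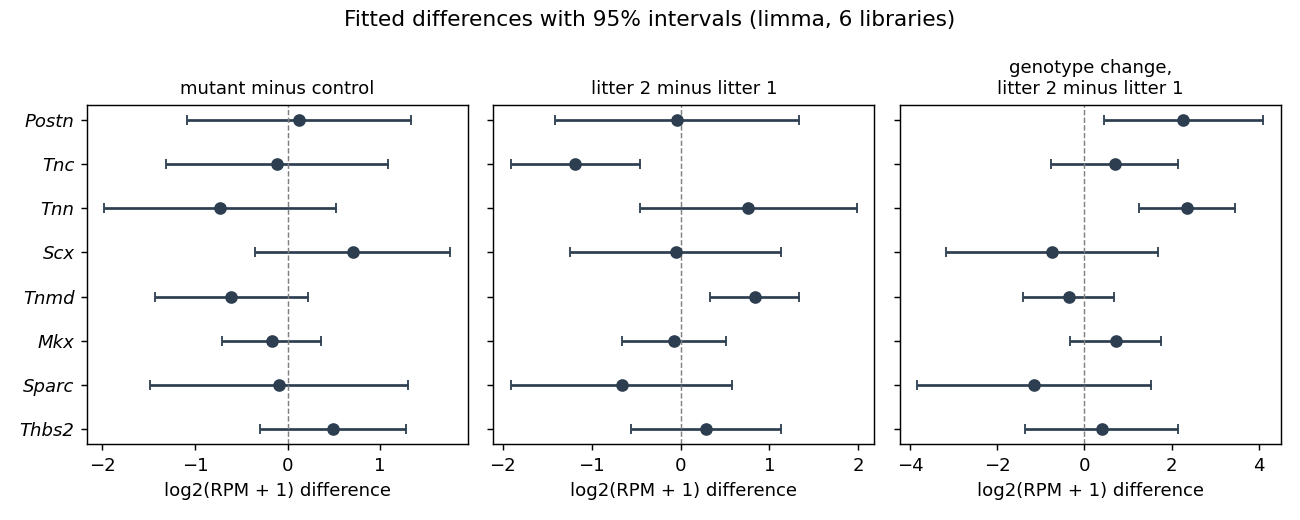
Fitted differences on the log2(RPM + 1) scale with 95% intervals from limma for 8 genes: mutant minus control, litter 2 minus litter 1, and the difference of the genotype change between litters. All 8 genotype intervals include 0; the litter intervals of Tnc and Tnmd and the third panel's intervals of Postn and Tnn do not.

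Although the genotypes did not separate, the genes varied widely between libraries. The SD of log2(RPM + 1) over 6 libraries had a median of 0.63 for the members and 0.23 for all genes tested, and 8 of 8 members were above the latter. Tnn varied more than 96.6% of the genes tested, Postn more than 94.6%, and Mkx more than 65.6%. The highest library exceeded the lowest by 4.20-fold for Tnn, 3.75-fold for Tnmd, 3.56-fold for Postn and 3.30-fold for Tnc. For Scx it was 11.0-fold, on 141 reads in mutant 1 and 13 reads in control 2. Scx passed the minimum mean only through mutant 1, so its place in these counts lends no support to a wide spread.

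The litters were compared in a fit with genotype as a covariate, 4 libraries of litter 1 against 2 of litter 2. Tnc was lower and Tnmd higher in litter 2, each without overlap between litters, and neither passed adjustment. Tnc lay at 541 and 691 RPM in litter 2 against 1019 to 1786 RPM in litter 1, a log2 difference of -1.18 (SE 0.30; unadjusted p 0.00673, adjusted p 0.121 by limma with Benjamini-Hochberg). Tnmd lay at 22.3 and 40.7 RPM in litter 2 against 10.8 to 20.4 RPM in litter 1, a difference of 0.83 (SE 0.21; unadjusted p 0.00636, adjusted p 0.118 by the same test). Without control 3 neither had an unadjusted p under 0.05, with Tnc at -0.84 (unadjusted p 0.111) and Tnmd at 0.65 (unadjusted p 0.0768) by limma. The adjusted p of Tnc ran from 0.0595 to 0.58 over its alternatives. Without mutant 1 the Tnmd difference was 0.99 (adjusted p 0.0462, limma with Benjamini-Hochberg), and over its other alternatives the adjusted p ran up to 0.55. Litter differences were common: 20.9% of the genes tested had an unadjusted p under 0.05 and litters did not overlap for 35.5%, against 2 of 8 members on both counts. By direction, 7.21% of the genes tested were higher and 13.7% lower at that p, against 1 member each (Tnmd and Tnc). At an adjusted p under 0.05, 0.872% of the genes tested were called (126 genes; limma, Benjamini-Hochberg) and 0 of 8 members. That count was 0 with limma voom and 0 without mutant 2 or mutant 3, and 371 without mutant 1. Of the 3026 genes at an unadjusted p under 0.05, 1041 were higher and 1985 lower in litter 2, a split that became 1894 and 2116 under median-of-ratios scaling. The other 6 members differed between litters by -0.66 (Sparc) to 0.76 (Tnn), with unadjusted p-values from 0.18 to 0.949 by limma. The Sparc difference was -1.23 without control 3 and -0.083 without mutant 3. Litter 2 gave 1 library per genotype, so its litter and its single libraries cannot be told apart.

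The sign of the genotype change differed between the litters for 5 of 8 members and for 63.5% of all genes tested. Those members were Tnn, Postn, Tnc (-0.34 in litter 1 and 0.35 in litter 2), Mkx (-0.41 and 0.31) and Sparc (0.29 and -0.86), and the difference had an unadjusted p under 0.05 for Tnn and Postn. Both litter 1 mutants were below both litter 1 controls for Tnn (8.24 and 8.35 against 19.9 and 32.8 RPM), whereas in litter 2 the mutant was above its control (34.7 against 18.9 RPM). The log2 change was -1.51 in litter 1 and 0.84 in litter 2, a difference of 2.35 (SE 0.45; unadjusted p 0.00193, adjusted p 0.501 by limma with Benjamini-Hochberg). For Postn the change was -0.63 in litter 1, where the genotypes overlapped, and 1.64 in litter 2, a difference of 2.27 (SE 0.75; unadjusted p 0.0227, adjusted p 0.868 by limma with Benjamini-Hochberg). Among all genes tested, 5.06% had an unadjusted p under 0.05 in this test, 3.1% with a positive difference, and 71.0% had a positive difference whatever the p. At that p 448 were positive and 283 negative, a split that became 369 and 473 under median-of-ratios scaling and 392 and 389 under quantile normalization. Postn and Tnn were the 2 of 8 members at that p, both positive. Opposite sides of the controls in the litters, as seen for Tnn, occurred for 18.2% of all genes tested and for 1 of 8 members. With 2 residual degrees of freedom and 1 library per genotype in litter 2, a single unusual library in litter 2 cannot be told apart from a litter effect.

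**Figure D3:**
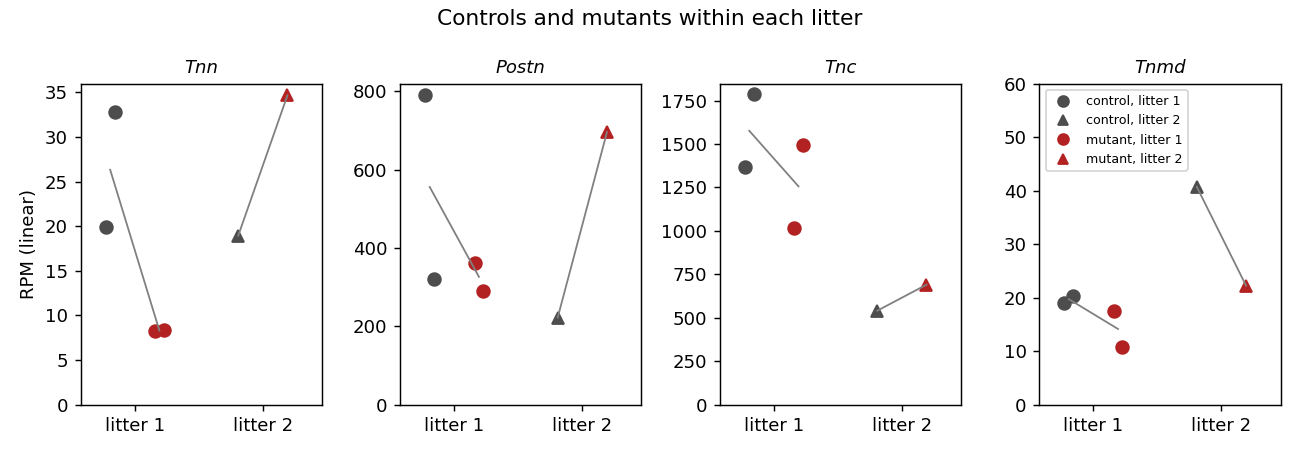
Linear RPM of Tnn, Postn, Tnc and Tnmd in controls (grey) and mutants (red) within litter 1 (circles, 2 libraries per genotype) and litter 2 (triangles, 1 per genotype); grey lines join the means. The lines of Tnn, Postn and Tnc fall in litter 1 and rise in litter 2, that of Tnmd falls in both, and both Tnc points of litter 2 (541 and 691 RPM) lie below all 4 of litter 1.

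The sequences before the transcription start of these 4 genes are given because these genes differed most between litters or in their genotype change between litters, and because a basic helix-loop-helix factor of this group, Scx, is known to bind E-boxes. RefSeq promoters of assembly GRCm38.p6 were taken for 6 of the 8 members: Postn, Tnc, Tnn, Tnmd, Sparc and Thbs2. Scx had no match, and Mkx was left out before matching. Each run below is the 250 bases before the start on the gene's strand, 5′ to 3′, at chr4:64047016-64047265 on the minus strand for Tnc, chr1:160153576-160153825 on the minus strand for Tnn, chr3:54360857-54361106 on the plus strand for Postn and chrX:133850758-133851007 on the plus strand for Tnmd. Capitals mark the E-box letters CANNTG, which read the same on both strands, and TATAAA on either strand.
Tnc: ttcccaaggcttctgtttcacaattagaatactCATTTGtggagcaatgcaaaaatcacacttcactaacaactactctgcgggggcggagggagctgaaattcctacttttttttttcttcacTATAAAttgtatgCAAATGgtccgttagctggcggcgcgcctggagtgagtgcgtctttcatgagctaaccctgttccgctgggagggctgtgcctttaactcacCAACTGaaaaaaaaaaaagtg
Tnn: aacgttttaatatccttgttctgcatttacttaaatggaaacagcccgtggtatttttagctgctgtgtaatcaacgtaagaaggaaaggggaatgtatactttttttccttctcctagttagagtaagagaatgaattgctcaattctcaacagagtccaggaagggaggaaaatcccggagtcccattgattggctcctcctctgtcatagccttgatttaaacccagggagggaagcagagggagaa
Postn: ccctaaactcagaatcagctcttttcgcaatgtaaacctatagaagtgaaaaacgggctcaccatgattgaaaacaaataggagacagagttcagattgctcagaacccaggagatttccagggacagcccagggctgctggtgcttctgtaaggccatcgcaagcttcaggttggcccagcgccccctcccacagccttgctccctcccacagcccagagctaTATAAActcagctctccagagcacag
Tnmd: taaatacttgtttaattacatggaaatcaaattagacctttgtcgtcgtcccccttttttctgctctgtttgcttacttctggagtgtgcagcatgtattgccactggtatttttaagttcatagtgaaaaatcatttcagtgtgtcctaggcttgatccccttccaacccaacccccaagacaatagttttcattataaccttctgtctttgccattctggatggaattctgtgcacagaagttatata
Tnc held 3 E-box matches, beginning 217, 113 and 21 bases before the start, and the windows of Tnn, Postn and Tnmd held 0. Of the 6 member windows 3 held CANNTG (Tnc, Sparc and Thbs2), against 66.2% of 32851 windows of the same length. TATAAA was found in 3 of 6 (Postn, Tnc and Thbs2), against 12.4% of all windows. CAGAC, the short letters known to bind Smad proteins, was found on either strand in 2 of 6 (Sparc and Thbs2), against 42.2%, and the letters GGCGCC in 0 of 6, against 9.59%. The motifs did not overlap each other where capitals are shown. The RefSeq start of Sparc lies 3103 bases inside the gene as GENCODE draws it, so its window is not the sequence before the GENCODE start. The windows of Tnmd and Tnn reach 28 and 5 bases into the gene as GENCODE draws it, and that of Thbs2 ends 27 bases before it. A match is a description of these letters and not a bound site.

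The 8 genes did not vary as a block over the libraries. Pearson's r of log2(RPM + 1) over the 6 libraries, which share litters, was above 0 in 12 of the 28 pairs and below 0 in 16, with a median of -0.12. The most alike pair was Scx and Thbs2 (0.80, Spearman's rho 0.94), both highest in mutant 1. Postn with Mkx followed (0.65). The most opposed pair was Tnc and Tnmd (-0.73), the 2 genes that differed between litters in opposite directions. Scx and Tnmd had an r of -0.03, and Tnc and Tnn of -0.14. These values are descriptions of 6 points and carry no test.

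**Figure D4:**
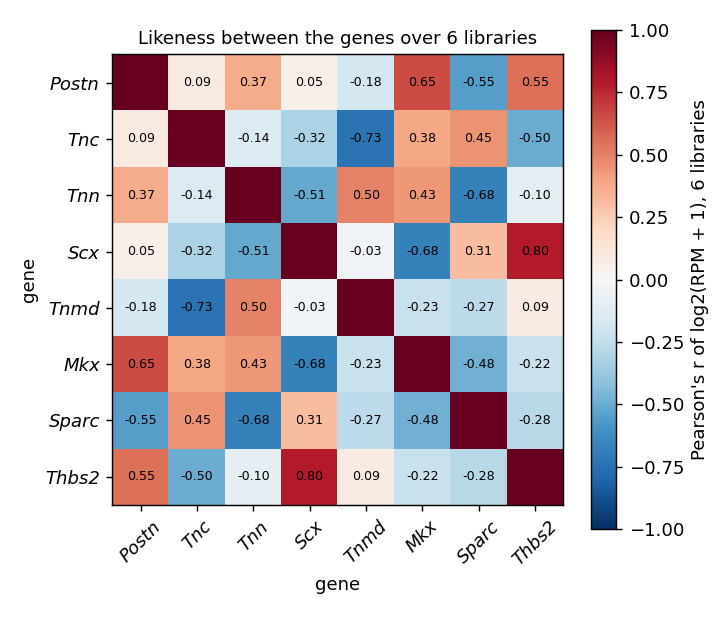
Pearson's r of log2(RPM + 1) over 6 libraries for each pair of the 8 genes, from blue (-1) through white (0) to red (1). Scx with Thbs2 (0.80) is the reddest pair and Tnc with Tnmd (-0.73) the bluest.

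The genes most alike to each member among the 14436 other tested genes were named by the same r over 6 libraries. For Sparc the closest was Col1a2 (r = 0.998), a chain of type I collagen, and then Smpd1 (0.994). Col1a2 was at 7861, 9457 and 7680.5 RPM in controls and at 13993, 9058 and 3089.8 RPM in mutants. Mutant 1 was highest and mutant 3 lowest for both Sparc and Col1a2, and the same libraries were highest and lowest for Dspp (6872 and 113 RPM), the dentin sialophosphoprotein of odontoblasts. The summed level of the 7 odontoblast genes, which is mostly Col1a1, ran from 16276 to 27646 RPM in controls and from 5412 to 37207 RPM in mutants. Its part in the Sparc values was not tested. Tnc was closest to Ino80 (0.999) and Atg13 (0.998), but 678 genes had an r above 0.95 with it, against 11 to 87 for the other members. Postn was closest to Pcdhb5 and Pcdh15 (0.995 each), Tnn to Appbp2 (0.995) and Tceal5 (0.991), and Tnmd to Zfp503 (0.987) and Mmgt1 (0.980). Mkx was closest to Zfp367 (0.998) and Hnrnph1 (0.995), Scx to Gm15655 (0.993) and Ppif (0.991), and Thbs2 to Rem2 (0.995) and Plekhh3 (0.993).

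**Figure D5:**
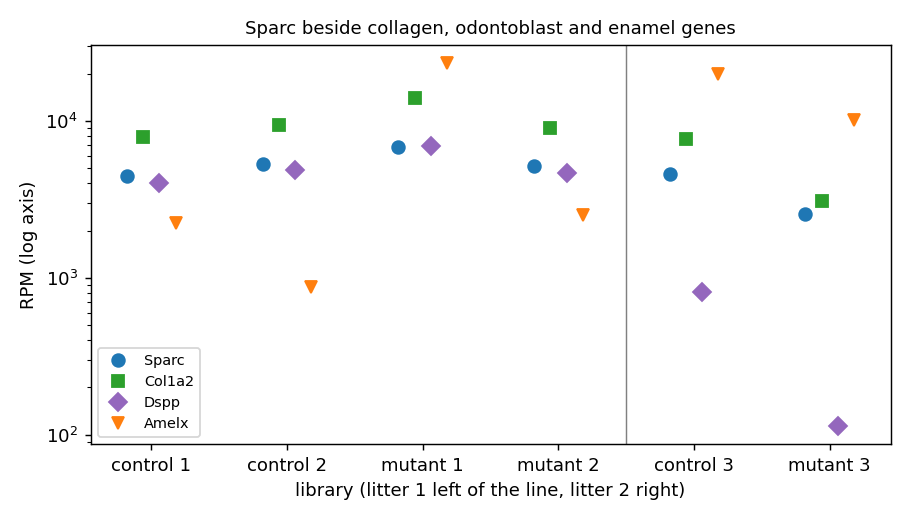
RPM on a log axis of Sparc, Col1a2 (type I collagen), Dspp (odontoblasts) and Amelx (enamel epithelium) in each library, litter 1 left of the line and litter 2 right. Sparc and Col1a2 share their highest library (mutant 1) and their lowest (mutant 3), while Amelx is at 876 RPM in control 2 and 23480 RPM in mutant 1.

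Paralogs of the members gave 12 tested genes of 16 in the table. At an unadjusted p under 0.05, 0 were higher (0.36% of all genes tested) and 2 lower (0.692%) in mutants, both of them thrombospondins, and 0 passed adjustment (limma, Benjamini-Hochberg). Thbs4, a pentameric thrombospondin of tendon and muscle, was at 43.8, 35.5 and 61.7 RPM in controls and at 20.7, 9.42 and 32.6 RPM in mutants. All 3 mutants lay below all 3 controls, with a log2 change of -1.25 (SE 0.42; unadjusted p 0.0201, adjusted p 1.00 by limma with Benjamini-Hochberg). Thbs3 was at 31.5, 34.0 and 30.6 RPM in controls and at 18.8, 21.2 and 26.0 RPM in mutants. These groups did not overlap either, against 2.64% of all genes tested without overlap between genotypes. The log2 change of Thbs3 was -0.54 (SE 0.16, unadjusted p 0.0109, adjusted p 1.00 by the same test). Thbs2 itself had a fitted change of 0.49, and Thbs1 one of 0.02. The difference between thrombospondins was not tested. Between litters 1 paralog was higher (7.21% of all genes tested) and 0 lower (13.7%) in litter 2 at an unadjusted p under 0.05, and 0 passed adjustment (limma, Benjamini-Hochberg). It was Thbs4, with a log2 difference of 0.89, and Spock1, a testican proteoglycan, followed with 0.54 (adjusted p 0.182 and 0.364 by limma with Benjamini-Hochberg).

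Other genes known from the ligament and follicle gave 20 tested of 21 in the table. At an unadjusted p under 0.05 there was 1 lower (0.692% of all genes tested) and 0 higher (0.36%) in mutants, and 0 passed adjustment (limma, Benjamini-Hochberg). The fitted level was lower for 14 and higher for 6, against 54.4% lower over all genes tested, with a median log2 change of -0.16 against -0.01. The lower gene was Omd (osteomodulin), a keratan sulfate proteoglycan of mineralized tissue, at 293, 324 and 377 RPM in controls and at 129, 197 and 297 RPM in mutants (log2 change -0.74; unadjusted p 0.0413 by limma). Pth1r, the receptor for parathyroid hormone-related protein in the follicle, was at 54.9, 67.9 and 65.8 RPM in controls and at 38.3, 56.3 and 53.9 RPM in mutants (log2 change -0.35; unadjusted p 0.0945 by limma). Between litters, 3 were higher (7.21% of all genes tested) and 2 lower (13.7%) in litter 2 at an unadjusted p under 0.05, and 0 passed adjustment (limma, Benjamini-Hochberg). Acta2, smooth muscle actin, was higher (0.78) and Col12a1, a fibril-associated collagen of ligament, lower (-0.76; adjusted p 0.0672 and 0.0884 by limma with Benjamini-Hochberg).

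Regulators and partners of tendon formation gave 14 tested of 17. Between genotypes 1 was lower at an unadjusted p under 0.05 (0.692% of all genes tested), 0 were higher (0.36%) and 0 passed adjustment (limma, Benjamini-Hochberg). It was Foxf2, a forkhead factor of craniofacial mesenchyme, at 73.2, 62.3 and 75.6 RPM in controls and at 29.2, 28.6 and 65.5 RPM in mutants. Mutants 1 and 2 were far below their controls and mutant 3 just overlapped control 2 (log2 change -0.87; unadjusted p 0.0274 by limma). The growth factor gene Gdf6 was at 1.25, 6.33 and 36.1 RPM in controls and between 0.699 and 1.47 RPM in mutants (log2 change -2.00; unadjusted p 0.0603 by limma), and control 1 overlapped the mutants. Between litters 2 were higher (7.21% of all genes tested) and 3 lower (13.7%) at an unadjusted p under 0.05. Prelp, a leucine-rich proteoglycan, was lower in litter 2 (log2 difference -3.40; adjusted p 0.0415 by limma with Benjamini-Hochberg), at 5.37 and 15.6 RPM against 76.9 to 161 RPM. No gene passed adjustment between litters under limma voom, median-of-ratios or quantile scaling, or without mutant 2 or mutant 3, so Prelp did not either. Tgfb3, a ligand of the TGF-beta pathway that acts upstream of tendon genes, differed by -1.36 (adjusted p 0.0519 by the same test).

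Receptors and assembly partners gave 17 tested of 17. Between genotypes 0 had an unadjusted p under 0.05 by limma, against 1.05% of all genes tested. The smallest unadjusted p-values were 0.278 for Lrp1, an endocytic receptor that clears thrombospondin 2 (log2 change -0.33), and 0.287 for fibronectin, Fn1 (-0.38), by limma. Between litters 8 were lower (13.7% of all genes tested) and 2 higher (7.21%) in litter 2 at an unadjusted p under 0.05. Of the 17, 1 passed adjustment (0.872% of all genes tested; limma, Benjamini-Hochberg). Ddr2, a collagen receptor kinase, was at 164 and 120 RPM in litter 2 against 338 to 442 RPM in litter 1 (log2 difference -1.48; adjusted p 0.042 by limma with Benjamini-Hochberg), and Cd47, a thrombospondin receptor, differed by -0.67 (adjusted p 0.0687). The Ddr2 call was lost under the same 5 alternatives as that of Prelp.

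Marker genes of other cells were measured beside these results. The 9 osteoblast genes had 2 lower at an unadjusted p under 0.05 in mutants (0.692% of all genes tested), Ibsp (-1.41) and Spp1 (-3.05), and 0 of the 7 odontoblast, 7 enamel epithelium, 5 other epithelium, 5 endothelium, 6 macrophage and osteoclast, 4 cartilage and 4 erythroid genes tested had one (limma). The 4 glia genes had 1 lower, and the dental mesenchyme genes 2 lower, Lhx8 (-0.46) and Lhx6 (-0.54). The fitted level was lower in mutants for 9 of 9 osteoblast and 7 of 7 odontoblast genes, lists that share 4 genes (Col1a1, Sp7, Phex and Dmp1), for 4 of 4 cartilage genes and 54.4% of all genes tested. It was higher for 6 of 7 enamel epithelium and 5 of 5 other epithelium genes. Erythroid genes summed to 1984 RPM in control 3 and 176.9 to 610.2 RPM elsewhere, and the 4 genes tested were higher in litter 2 at an unadjusted p under 0.05 (7.21% of all genes tested; limma). Of the 7 odontoblast genes, 3 were lower in litter 2 at an unadjusted p under 0.05 (Dspp, -4.03, Phex, -3.47, and Nes, -1.19) and 2 higher (Smpd3, 1.15, and Dmp1, 1.80), where 13.7% and 7.21% of all genes tested were called. Their median difference was -1.19 and 0 passed adjustment (limma). Enamel genes summed to 17083 and 36754 RPM in litter 2 and to 2143, 3562, 4454 and 47440 RPM in litter 1. The 5 other epithelium genes summed to 2664 and 3703 RPM in litter 2 and to 209 to 2407 RPM in litter 1. These sums did not overlap, against 35.5% of all genes tested without overlap between litters. Of the 5 genes, 2 were higher at that p. Of the 6 macrophage and osteoclast genes, 4 were lower and 2 higher in litter 2. Csf1r (-0.93) and Emr1 (-1.10) were lower at that p, while Acp5 (0.53) and Mmp9 (0.39) had a higher fitted level. The part of these cells in the litter differences of Tnc and Tnmd was not tested.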

How the data were processed

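The labels' protocols give poly(A) libraries read on an Illumina Next-Seq system. TopHat2 and the build mm10 are named in the submitters' processing notes, and the counting program and annotation are not given in the sources used here. The authors deposited 1 table of log2 values titled as normalized RPKM. Raised as powers of 2, 100% of the values above each column's minimum were whole multiples of 1 step per column (within 0.02 of a read, or 0.00002 of the value for large counts). The step was shared by all genes, so length was not divided out, and the values were read as log2 of RPM with the minimum (0.9 of a step) set to 0. The denominator is inferred from the step. A level of 3 reads was 0.0987 to 0.126 RPM, covering counting error only. The design had assumed RPKM; the same test was applied to RPM. Genes whose mean reached 1 RPM were fitted on the log2(RPM + 1) scale, using limma 3.58.1 (R 4.3.3) (eBayes with trend, two-sided, Benjamini-Hochberg over all tested genes). The litter fit added genotype, and the litter by genotype term was tested in a further fit. The fits were also run on simulated counts with planted changes. Those counts held no other differences between litters or in cell content, so recovery at the spread of these data was not tested. Exon lengths are unions of GENCODE vM21 exons, found for 89.8% of tested symbols. The members and lists were chosen with earlier results of these data known. Named genes are the members, for each the 2 other genes with the highest r, and from each list the 2 smallest p-values per comparison. Outside this rule are Bmpr1a, the genes overlapping members, and other listed genes named beside a result after their values were seen. The column names number both genotypes 1 to 3. Alternatives tried were another pseudocount, filters, scalings, limma voom, litter or replicate blocks, litter 1 alone and leaving out each library; those of the litter by genotype term were chosen after seeing the data. Figures were drawn with matplotlib 3.10.9.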

Additional observations from a re-analysis of the deposited data

Results flagged for a closer look

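Tnn and Postn are listed because the test of their mutant minus control difference between litters gave an unadjusted p under 0.05. So did 5.06% of all genes tested (limma). The litter by genotype value on the log2(RPM + 1) scale was 2.35 for Tnn and 2.27 for Postn, and neither passed adjustment over all genes tested (adjusted p 0.501 and 0.868, limma with Benjamini-Hochberg). With 1 litter 1 library left out, Tnn ran from 2.01 to 2.70 and Postn from 1.62 to 2.92. The Tnn adjusted p fell to 1.81e-04 without control 1 and 0.0185 without control 2, and that of Postn to 0.00228 without control 2 (limma, Benjamini-Hochberg). Without mutant 1 the adjusted p was 0.974 for both, and the unadjusted p of Postn was 0.0679 without mutant 1 and 0.0977 without mutant 2 (limma). Without control 1 or control 2, the lone control of litter 1 is assumed to vary like the litter 1 mutants, which were nearly equal for Tnn (8.24 and 8.35 RPM). Without mutant 1 or mutant 2, the lone mutant is assumed to vary like the litter 1 controls (19.9 and 32.8 RPM). Under median-of-ratios and quantile scaling the unadjusted p of Postn was 0.0581 and 0.0519 by limma.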

How the results depend on the processing

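Over the alternatives the members' genotype changes kept their direction in 108 of 119 cases and their litter differences in 84 of 95. No member passed adjustment in any genotype alternative (adjusted p 0.951 to 1.00, limma with Benjamini-Hochberg), and in the litter comparison only Tnmd without mutant 1 did. In litter 1 alone Postn went to -0.63 and Sparc to 0.29. Litter differences reversed for Postn under median-of-ratios scaling (0.010) and for Scx with a pseudocount of 0.1 (0.090), quantile normalization (0.010) and limma voom (0.053). With each library left out in turn the genotype change ran from -0.27 to 0.65 for Postn, -0.62 to 0.24 for Tnc, -0.31 to 0.0020 for Mkx and -0.40 to 0.32 for Sparc. The litter difference then ran from -1.17 to 1.10 for Postn, -0.41 to 1.94 for Tnn, -0.43 to 0.38 for Scx and -0.44 to 0.28 for Mkx. Scx was not tested with a mean of at least 5. The cause of these reversals was not tested.

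The 152 genes at an unadjusted p under 0.05 between genotypes became 344 with no filter, 292 under the litter block, 319 within litter 1 and 524 with the replicate block, and 68 to 325 with a library left out. Members among them, 0 as reported, were 1 (Tnmd) under the litter block, 1 (Tnn) within litter 1, 2 with the replicate block (Thbs2, unadjusted p 0.0156, and Tnmd, 0.0184, by limma) and 0 to 2 with a library left out. Same-numbered libraries deviated from their group means with an r across genes of -0.03, 0.75 and 0.50. Control and mutant libraries with unlike numbers had an r from -0.67 to 0.09. Numbers 2 and 3 lay above that range and number 1 within it. The numbers were not taken as pairs, and pairing was not settled. Of the 152 genes, 52 were higher and 100 lower in mutants. That became 186 and 139 without control 1, 293 and 231 with the replicate block, and 82 and 210 under the litter block. Genes passing adjustment between genotypes ran from 0 to 1 with a library left out, and the 1 was Spp1, without control 1. Between litters the 126 genes passing adjustment became 2 with no filter, 0 with median-of-ratios scaling, 0 with quantile normalization and 0 with limma voom, and ran from 0 to 371 with a library left out. Those at an unadjusted p under 0.05 ran from 1393 to 4248, and the members among them from 1 to 3. Under quantile normalization the split between litters was 1818 higher and 1951 lower. Depth limits Scx most, where 1 read in mutant 3 is worth 0.0419 RPM.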

Other observations

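Some listed genes of the ligament and follicle, and of matrix receptors and assembly partners, that the report does not name varied between libraries without passing a test between genotypes. Their values are given as measured, and the genes were chosen after their values were seen. Col3a1, the type III collagen chain of ligament and loose connective tissue, was at 5109, 3253 and 3010 RPM in controls and at 2346, 2552 and 4540 RPM in mutants. Control 1 and mutant 3 were highest for Col3a1, as they were for Postn. Aspn (asporin), a leucine-rich protein enriched in the ligament, was at 31.9, 22.1 and 26.5 RPM in controls and at 17.3, 19.1 and 52.7 RPM in mutants. Mutant 3 was highest and mutants 1 and 2 lowest, the order also seen for mutant 3 against mutants 1 and 2 in Tnn. Fmod (fibromodulin), which binds collagen fibrils in tendon, was at 514, 940.2 and 97.0 RPM in controls and at 392, 743.5 and 434 RPM in mutants. Lox, the lysyl oxidase that crosslinks collagen, was at 275, 334 and 159 RPM in controls and at 451, 364.5 and 58.5 RPM in mutants, with both litter 2 libraries lowest. Itga8, a receptor subunit known to bind tenascins, was at 55.9, 50.5 and 19.8 RPM in controls and at 27.7, 37.9 and 52.5 RPM in mutants.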
